A study of Mus musculus with 32 samples.

Results

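The data set was searched for the genes that encode the subunits of voltage-gated sodium channels (symbols Scn, a number, then a or b) and of voltage-gated calcium channels (symbols starting with Cacn). RefSeq lists 40 such mouse genes. Of these, 38 had at least 1 probe on the array (12 sodium and 26 calcium channel genes, 55 probes), out of 32432 genes with a probe, while Scn9a and Scn3b had none under that name. A probe was tested in a group only when its mean processed signal reached 100 in at least 1 of the 2 dyes, and 27 of the 38 genes (9 sodium and 18 calcium channel genes, 38 probes) passed in at least 1 group. The 11 others, named only, were Cacna1b, Cacna1c, Cacna1e, Cacna1f, Cacna2d4, Cacng1, Cacng6, Cacng8, Scn7a, Scn10a and Scn11a. A gene's value below is that of its brightest probe unless another is named, and 10 of the 27 genes had more than 1 passing probe.

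The arrays compared the transcriptome of the immature NMRI mouse brain after hypoxia-ischemia (HI), a model of neonatal brain injury, at 2 ages. HI pups of postnatal day 5 (P5) or day 10 (P10), the day of birth being day 1, had the right carotid artery tied for good under isoflurane, spent 1 h with the mother and then 40 min in 8% oxygen. Right forebrain hemispheres were taken 3, 6, 12 or 24 h later, and each pool held 6 sex-matched animals. Naive pups of the same litters and times served as controls, without anesthesia, ligature or hypoxia, so that the effects of these steps cannot be told apart. On each of the 24 HI arrays, 1 HI pool (red dye, Cy5) and 1 naive pool (green dye, Cy3) were hybridised together, with 3 arrays in each of the 8 groups and the same dye orientation on all. A further 8 arrays held naive pools only, 4 of P2 and 4 of P15, with dyes exchanged. The hemisphere is a mixed tissue, in which fewer cells of a type and less RNA per cell cannot be told apart, and p-values describe the spread between pools.

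Voltage-gated sodium channels carry the upstroke of the action potential. Their large alpha subunit forms the pore (Scn1a, Scn2a, Scn3a and Scn8a are the main forms of central neurons), and the small beta subunits tune gating and anchor the channel. Voltage-gated calcium channels turn depolarisation into calcium entry. Their alpha1 pore comes in L-type (Cacna1c, Cacna1d, Cacna1f, Cacna1s), P/Q-, N- and R-type (Cacna1a, Cacna1b, Cacna1e) and T-type forms (Cacna1g, Cacna1h, Cacna1i), carried to the membrane by beta (Cacnb) and alpha2delta (Cacna2d) subunits. Several Cacng products, Cacng2 (stargazin) among them, traffic AMPA-type glutamate receptors instead. In rodents, Scn3a is known as the embryonic and neonatal pore, and the Scn1a pore and the beta subunits as channels of the maturing brain.

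Probes well above background made up 57.9 to 79% of the total, apart from P10 12 h replicate 1, where both dyes stood higher (84.9 and 91.9%), and 0 probes were saturated. The array with the widest spread of ratios was P10 24 h replicate 1 (SD of log2 ratios 1.01). All P5 arrays lay on slides 1 to 3 and all P10 arrays on slides 4 to 6, 1 replicate number a slide, so that age and slide cannot be told apart between P5 and P10. Neurons, the labelled tissue's defining cells, were present: all 8 neuronal marker genes were well above background in the naive dye on all 24 arrays.

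The naive level was followed first, since it sets the scale for the HI ratios. P2 and P15 pools shared slides 7 and 8 and gave the cleanest contrast. Between P2 and P15, 8 of the 28 channel genes tested rose and 3 fell by more than 2-fold at a limma adjusted p under 0.001, against 11.2% of all genes higher and 10.4% lower. The median change was 0.45 on the log2 scale over channel genes and 0.131 over all genes.

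The beta subunit genes Scn4b and Scn2b led the rises. Scn4b, whose product drives resurgent sodium current, had signals of 54.5, 40.2, 57.2 and 43.1 in the 4 P2 pools and of 1184, 1425, 1174 and 1090 in the 4 P15 pools. The ages did not overlap, and the level relative to the array's 75th percentile rose by 5.24 on the log2 scale (SE 0.24, 37.7-fold, limma adjusted p = 1.16e-17). Scn2b, the disulfide-linked beta subunit, went from 915, 910, 1104 and 975 to 6963, 6441, 4833 and 4412 (log2 difference 3.10, SE 0.26, 8.58-fold, limma adjusted p = 1.57e-11).

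Among the pores, Scn1a rose and Scn3a fell. Scn1a, the pore prominent in inhibitory interneurons, had signals of 621, 584, 495 and 409 at P2 and of 2367, 2389, 1258 and 1250 at P15, a log2 rise of 2.32 (SE 0.22) on its brighter probe and of 1.53 on its dimmer one. Scn3a went from 4625, 4427, 6062 and 4640 to 1329, 1230, 1393 and 1392, a log2 difference of -1.29 (SE 0.27), with -1.52 on its other probe. Neither gene's pools overlapped between ages. Scn2a, the pore of the early axon initial segment, differed by 0.36 (SE 0.32) and Scn8a, that of the mature one, by -0.78 (SE 0.28) on the brighter probe and 1.29 (SE 0.35) on the dimmer one, and neither passed the threshold.

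In the calcium channel family, Cacnb4, a beta subunit whose loss gives the lethargic mouse, rose by 1.76 (SE 0.17), from signals of 373 to 520 to signals of 911 to 1069. Also higher were Cacna1s (2.97-fold), Cacng3 (2.51-fold) and Cacnb2 (2.14-fold). Cacng4, an AMPA receptor partner, showed the deepest fall, with signals of 968, 966, 492 and 503 at P2 and of 136, 102, 56.5 and 43.5 at P15 (log2 difference -2.60, SE 0.30, limma adjusted p = 1.69e-08). Cacna1h, a T-type pore, fell by 1.36 (SE 0.28) from 2511 to 3170 down to 698 to 807. Its second probe read 0.45 (SE 0.31) and did not pass, so the fall rests on the brighter probe. Cacna1a did not pass on either probe (0.54, SE 0.35, and 0.73, SE 0.31).

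Within each slide the signs held. P15 minus P2 was 5.32 on slide 7 and 5.16 on slide 8 for Scn4b, 3.40 and 2.80 for Scn2b, -2.51 and -2.68 for Cacng4, and -1.30 and -1.28 for Scn3a. The intermediate ages were less clear, as the P5 slide of replicate 3 did not resemble the other P5 slides. Over all probes tested in the naive series, its mean naive profile had a Pearson r of 0.925 and 0.921 with slides 1 and 2. With the P10 slides 4 to 6 it had r = 0.945, 0.927 and 0.963, whereas slides 1 and 2 had r = 0.988 with each other. These correlations are across probes, which are not independent, and describe the profiles only. Scn3a showed it, with P5 levels of 2.46 and 2.24 on slides 1 and 2 but 1.25 on slide 3, beside 0.95, 0.98 and 1.13 on the P10 slides. Scn4b kept an order at every slide, with P5 levels of -2.67, -2.86 and -3.27 and P10 levels of -1.84, -1.87 and -1.97. The calls between neighbouring ages, 3 higher and 0 lower from P2 to P5 (7.37 and 1.19% of all genes), 5 and 9 from P5 to P10 (29.7 and 17.8%) and 9 and 5 from P10 to P15 (12.4 and 22.4%), contained this slide difference. Beside the limma count of 0 lower from P2 to P5 stand 3 genes lower at an unadjusted p under 0.05 at any fold, and 1 lower gene with both dyes of the P2 and P15 arrays in the fit. From P5 to P10, Cacna1h and Cacna1i each had 1 probe called higher and 1 called lower.

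**Figure D1:**
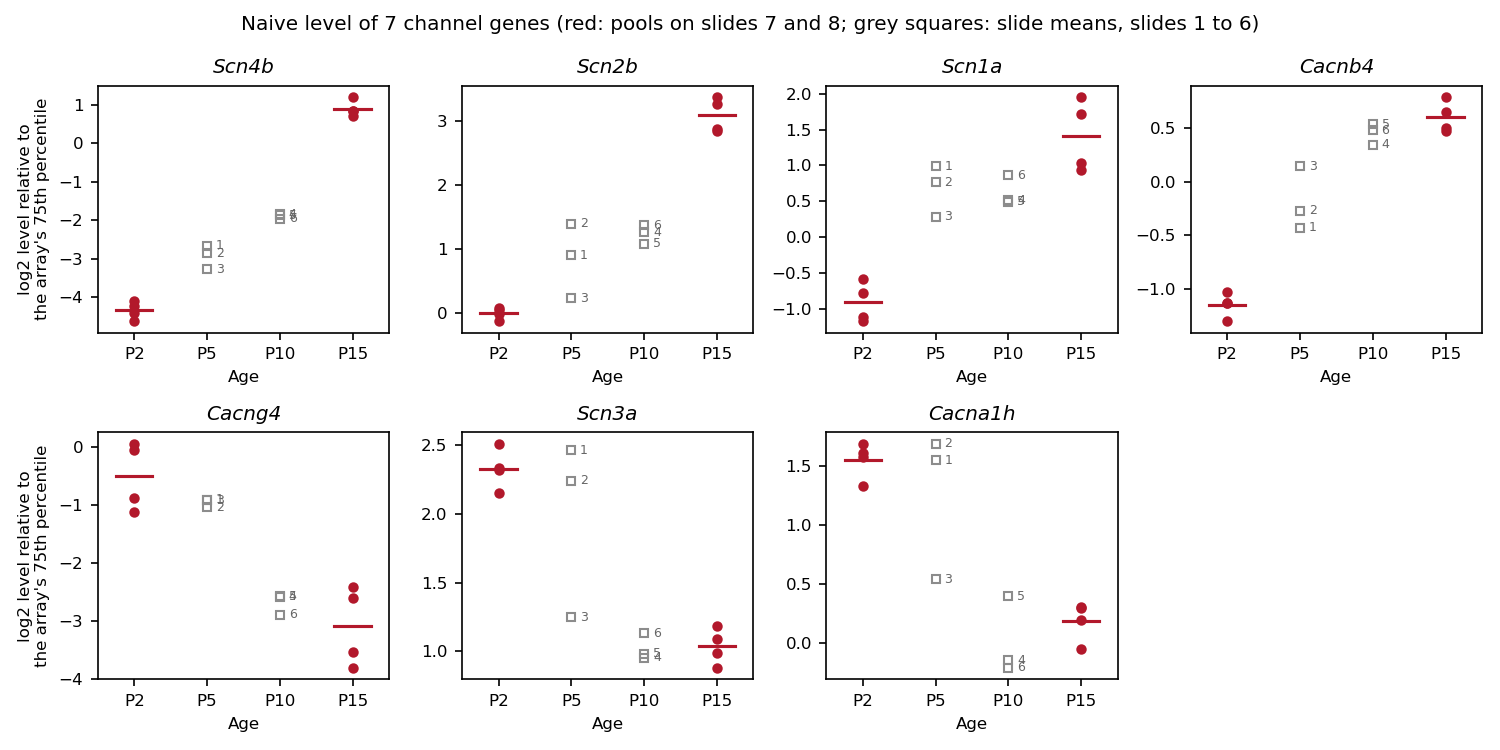
Naive level of 7 channel genes by age, as log2 signal relative to the array's 75th percentile. Red points are the 4 pools of P2 and of P15 with their mean as a bar, and grey squares are the means of 4 arrays on each numbered P5 (1 to 3) or P10 (4 to 6) slide. Scn4b, Scn2b, Scn1a and Cacnb4 were higher in every P15 pool than in every P2 pool, Cacng4, Scn3a and Cacna1h lower, and slide 3 sat near the P10 slides for Scn3a.

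Scn2b and Scn4b are neighbours on mouse chromosome 9, with start sites 20748 bases apart on the same strand, and both are shown with Scn1a because they are 3 of the genes with the largest rises between P2 and P15. The RefSeq promoter windows (GRCm38.p6) span 250 bases before and 50 bases after the start, and 30 of the 40 channel genes have one. Capitals mark the only matches found to the motifs searched.
Scn2b, chr9:45117626-45117925, plus strand: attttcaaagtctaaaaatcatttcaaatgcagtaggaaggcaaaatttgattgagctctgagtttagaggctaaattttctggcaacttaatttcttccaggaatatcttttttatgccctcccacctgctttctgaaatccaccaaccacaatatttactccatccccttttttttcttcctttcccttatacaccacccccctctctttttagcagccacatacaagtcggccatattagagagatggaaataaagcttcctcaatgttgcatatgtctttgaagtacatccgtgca
Scn4b, chr9:45138374-45138673, plus strand: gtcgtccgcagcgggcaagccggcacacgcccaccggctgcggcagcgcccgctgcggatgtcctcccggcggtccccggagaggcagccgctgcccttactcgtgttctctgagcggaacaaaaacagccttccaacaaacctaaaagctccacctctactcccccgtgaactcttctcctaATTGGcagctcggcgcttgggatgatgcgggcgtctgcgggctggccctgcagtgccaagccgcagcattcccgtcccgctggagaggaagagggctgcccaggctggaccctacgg
Scn1a, chr2:66440788-66441087, minus strand: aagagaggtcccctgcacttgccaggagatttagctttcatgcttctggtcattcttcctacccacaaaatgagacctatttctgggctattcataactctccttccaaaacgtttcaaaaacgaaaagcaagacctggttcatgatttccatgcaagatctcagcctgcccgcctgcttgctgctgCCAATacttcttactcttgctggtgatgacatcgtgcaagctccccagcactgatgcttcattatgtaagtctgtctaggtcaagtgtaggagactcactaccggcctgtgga
The motifs searched, on both strands, were TATAAA (in 13.6% of 32851 such windows), GGGCGG (35.7%), CCAAT (37.4%) and TGACGTCA (1.79%). A CCAAT lay 63 bases before the start of Scn1a, and its reverse complement lay 67 bases before that of Scn4b. The Scn2b window held none of the 4. The windows also differed in base composition, with a G and C content of 38.3% for Scn2b, 66.3% for Scn4b and 47.3% for Scn1a, beside a median of 52.7% over all windows. A match describes letters in the window and nothing about binding.

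After HI, the channel genes past the fold threshold were all lower, but a broad shift down was absent at P10 3 and 6 h. There, 11 of 24 and 13 of 25 brightest probes had a mean below 0 (45.8 and 52%, against 53.2 and 50.2% of all genes). At a limma adjusted p under 0.05 and over 1.5-fold, 7 of the 27 genes were lower in at least 1 of the 8 groups and 0 were higher, while 18.1% of all genes were lower and 15.2% higher in at least 1 group by the same rule. At P5 the lower genes were 2 of 24 (8.33%, against 2.98% of all genes) and at P10 they were 6 of 26 (23.1%, against 17.7%). For the higher direction the background was 5.26% at P5 and 15% at P10. Relaxed to an unadjusted p under 0.05 at any fold, 0 to 6 genes a group were higher and 4 to 16 lower. By that rule 11.4 to 29.9% of all genes were higher and 12 to 31.6% lower. The methods' test against zero with Benjamini-Hochberg adjustment and 1.5-fold called 0 channel genes in either direction in each of the 8 groups. With 3 arrays a group this adjusted test calls almost nothing over the whole array, so its counts of 0 decide nothing about channel genes. The unadjusted form of the methods' test called 1 gene higher in 1 group (Scn8a at P10 6 h), on a probe with the dye effect described below. The 7 lower genes were Cacna1a, Cacna1g, Cacna1s, Scn2b, Scn3a, Scn4b and Scn8a, and all were called on probes well above background in both dyes on each of the 3 arrays. Scn4b, however, passed the signal filter at P5 12 h through the naive dye only, so the filter favoured a lower value. It is included in the P5 counts here and below.

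**Figure D2:**
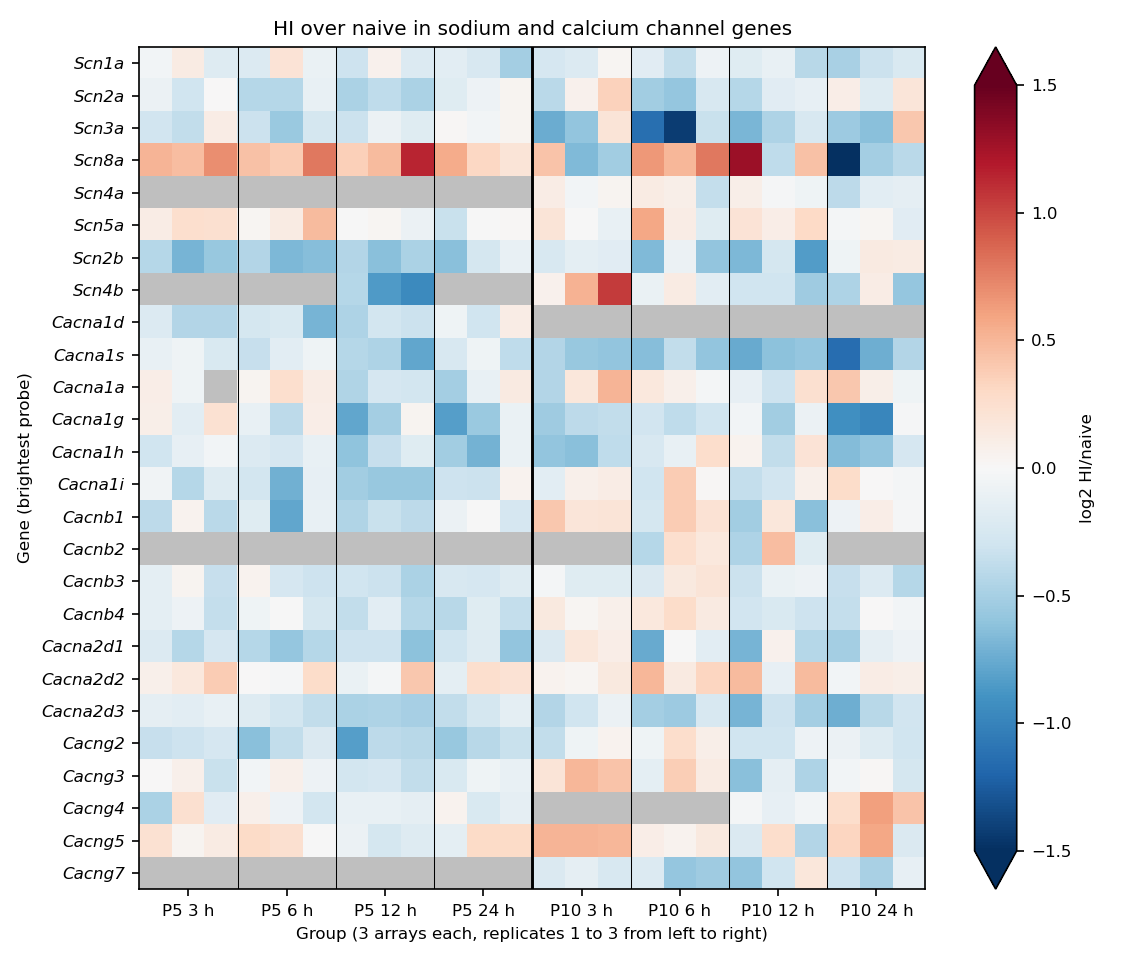
log2 HI over naive on each of the 24 arrays (columns, 3 replicates a group) for 26 of the 27 channel genes that passed the signal filter (rows, brightest probe), in blue where HI was lower and red where it was higher. Grey cells were not tested. Blue prevails at P5 12 h, where 22 of 24 genes had a mean below 0.

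In the P5 brain, changes were small, shared by many channel genes and most frequent at 12 h. With the fold threshold, 0 of 23 genes tested were called at 3 h (background 2.24% higher and 0.528% lower), 0 of 23 at 6 h (2.72 and 1.15%), 2 of 24 were lower at 12 h (3.41 and 1.81%) and 0 of 23 at 24 h (1.61 and 0.418%). At an unadjusted p under 0.05 whatever the fold, 4, 8, 16 and 14 genes were lower at the 4 times and 2, 0, 1 and 0 were higher. Of all genes, 14, 18.6, 19.6 and 12% were lower and 11.4, 15, 15.2 and 11.9% higher by that rule. The count lower at 3 h was near this background. Counting the limma adjusted p alone at any fold, 1 gene was lower at 3 h (4.35%, against 4.79% of all genes), 5 at 6 h (21.7%, against 9.88%), 13 at 12 h (54.2%, against 11.4%) and 5 at 24 h (21.7%, against 3.4%). Higher genes by that count were 1 at 3 h, on the dimmer probe of Scn1a (0.35), and 0 at the other 3 times (5.05, 7.92, 8.78 and 4.1% of all genes). At P5 this Scn1a probe reached the signal filter at 3 and 12 h only, so a higher value may have been favoured. It also read 0.144 higher in Cy5 than in Cy3 on the arrays of naive pools. Once this was subtracted, its mean at 3 h became 0.207. By sign alone, 16, 17 and 19 of 23 brightest probes had a mean below 0 at 3, 6 and 24 h. These were 69.6, 73.9 and 82.6%, against 54.4, 53.3 and 51.8% of all genes.

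The 13 genes lower at P5 12 h came from every subunit class, namely the pores Scn2a, Cacna1a, Cacna1h, Cacna1i and Cacna1s, the sodium channel beta subunits Scn2b and Scn4b, the calcium channel subunits Cacna2d1, Cacna2d3, Cacnb3 and Cacnb4, and the AMPA receptor partners Cacng2 and Cacng3. Of the 24 brightest probes, 22 had a mean below 0 (91.7%, against 52.2% of all genes), with a median log2 ratio of -0.359 against -0.0127 over all genes. With the Cy5 over Cy3 ratio of the naive arrays subtracted, 22 were below 0 and the median was -0.296. The 13 include Scn4b, whose lower value the signal filter favoured. Their count fell to 7 without replicate 3 and lay between 7 and 9 when any 1 of the 3 arrays was left out. Summed neuronal marker signal was also lower at this time, by -0.282 to -0.174 on the log2 scale over the 3 arrays with 5 of 8 marker genes below 0 and Slc17a7 and Syt1 called lower (-0.59 and -0.72), and its part in the channel gene values was not tested. Summed signals of 5 astrocyte genes (0.288 to 0.49) and of 5 blood cell genes (0.346 to 1.39) were higher there, and their part was not tested either.

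**Figure D3:**
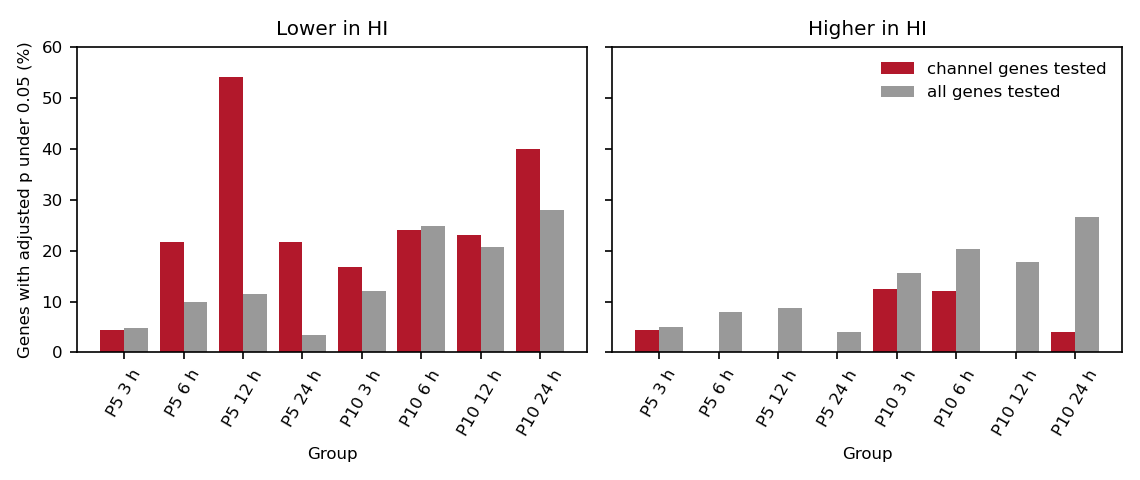
Share of genes (%) with a limma adjusted p under 0.05 at any fold, lower (left) and higher (right) in HI, in each of the 8 groups, for channel genes (red) and for all genes tested (grey). The widest gap was at P5 12 h, with 54.2% of channel genes and 11.4% of all genes lower, while at P10 6 h the shares were 24 and 24.8%.

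Scn2b was lower early at P5. Its log2 ratios were -0.43, -0.70 and -0.57 at 3 h, -0.44, -0.67 and -0.64 at 6 h, and -0.45, -0.62 and -0.47 at 12 h. It lay below 0 on all 12 P5 arrays, but the group means of -0.57, -0.58 and -0.51 (SE 0.11 each, limma adjusted p = 0.00348, 0.00204 and 0.00428) stayed just within the fold threshold. At 24 h the mean was -0.34 (limma adjusted p = 0.0848). Cacng2 was also below 0 on all 12 P5 arrays (-0.824 to -0.22), with means of -0.41 at 6 h, -0.54 at 12 h and -0.44 at 24 h that passed the adjusted p but not the fold threshold. Cacna2d3, the subunit that raises surface expression of the pore, was also below 0 on all 12 P5 arrays (-0.502 to -0.11) and reached -0.48 (SE 0.09, limma adjusted p = 0.00106) at 12 h.

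The 2 genes past the fold threshold at P5 12 h were Scn4b and Cacna1a. Scn4b had naive signals of 89.6, 171 and 69 and HI signals of 66.4, 94.9 and 35.5, with log2 ratios of -0.43, -0.85 and -0.96. All 3 arrays were lower in HI, and the mean was -0.75 (SE 0.17, limma adjusted p = 0.00477). Its signal reached the filter at P5 in this group alone and through the naive dye only, so the filter favoured a lower value. Without replicate 3 the Scn4b mean was -0.64 with an adjusted p of 0.0661. Cacna1a, the P/Q-type pore of presynaptic terminals, had naive signals of 391, 627 and 210 and HI signals of 217, 368 and 147 on its dimmer probe, with log2 ratios of -0.85, -0.77 and -0.52 and a mean of -0.71 (SE 0.14, limma adjusted p = 0.0019). The brighter Cacna1a probe averaged -0.33 in the same pools. Both calls ended with normexp and loess (means of -0.30 for Scn4b and -0.55 for Cacna1a). Neither passed the methods' adjusted test, which calls almost nothing with 3 arrays a group.

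In the P10 brain, the share of channel genes lower in HI by adjusted p lay nearer to that of all genes. With the fold threshold, 0 of 24 were called at 3 h (background 3.98% higher and 1.51% lower), 2 of 25 were lower at 6 h (7.64 and 6.72%), 3 of 26 at 12 h (6.12 and 4.27%) and 3 of 25 at 24 h (9.91 and 11.2%), none of the 4 times giving a higher call. At an unadjusted p under 0.05 whatever the fold, 5, 8, 12 and 11 genes were lower and 5, 6, 2 and 2 higher. Of all genes, 19, 29.1, 25.9 and 31.6% were lower and 21.7, 24.2, 22.5 and 29.9% higher by that rule. The counts lower at 3 and 6 h were near this background. By adjusted p alone, 4, 6, 6 and 10 genes were lower (16.7, 24, 23.1 and 40%, against 12, 24.8, 20.8 and 27.9% of all genes) and 3, 3, 0 and 1 were higher (12.5, 12, 0 and 4%, against 15.6, 20.4, 17.7 and 26.7%). By this count the shares lower were near the background at 3, 6 and 12 h. By sign alone, 22 of 26 brightest probes had a mean below 0 at 12 h and 17 of 25 at 24 h. These were 84.6 and 68%, against 50.3 and 51.1% of all genes. The median at 12 h was -0.222, against -0.0023 over all genes, and -0.16 with the dye effect subtracted. Summed neuronal marker signal rose over the naive pools at 6 h (0.531 to 0.704), with Nefl, Rbfox3 and Snap25 called higher, and ran from -0.479 to 0.0594 at 24 h. Summed astrocyte signal was higher on all P10 arrays (at 6 h from 0.381 to 0.88, at 12 h from 0.525 to 0.677, at 24 h from 0.423 to 0.934, with 3 of 5 genes called higher at each of these times). Summed blood cell signal ran from 0.179 to 0.649 (6 h), from -0.168 to 1.12 (12 h) and from -0.139 to 0.214 (24 h), with 2, 3 and 2 of 4 genes called higher. The part of these cell types in the channel gene values was not tested.

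Cacna1s, the L-type pore best known from skeletal muscle, was below 0 on every HI array, as was Cacna2d3. Its brighter probe was below 0 on all 12 P5 arrays (-0.774 to -0.0661) and on all 12 P10 arrays (-1.14 to -0.372). On the arrays of naive pools this probe read -0.0933 in Cy5 over Cy3 on average. With this dye effect subtracted, not every P5 array lay below 0. The P5 means at 3 and 6 h then became -0.0409 and -0.0942. At P10 12 h, naive signals of 610, 310 and 342 stood beside HI signals of 362, 203 and 230, with log2 ratios of -0.75, -0.61 and -0.57 (mean -0.65, SE 0.10, limma adjusted p = 0.000128). At P10 24 h, signals of 471, 301 and 281 stood beside 213, 181 and 208, with ratios of -1.14, -0.73 and -0.44 (mean -0.77, SE 0.10, limma adjusted p = 1.92e-05). The means at 3 and 6 h were -0.53 each, within the fold threshold. The second Cacna1s probe, bright enough only at P10 12 h, averaged -0.59 (limma adjusted p = 0.0106). It reached the filter through the naive dye only, at a mean signal of 101.6, so the filter favoured a lower value. Its value is therefore no independent support for the first probe. With the dye effect subtracted the mean at 12 h was -0.55 and inside the fold threshold, and with normexp and loess both means were inside it (-0.40 and -0.53), each with an adjusted p under 0.05. Of 7 skeletal muscle genes, 5 were well above background in the naive dye on all 24 arrays (median signals 43.8 to 306), while Ckm and Mylpf were so on 0 and 2 arrays. Of the 4 tested in at least 1 group, limma called 0 at the fold threshold. The log2 ratio of the summed signal of all 7 was -0.324 to -0.201 at P5 12 h, -0.236 to -0.0325 at P10 12 h and 0.125 to 0.137 at P10 24 h, and Tnnt3 had a median of -0.5 over the 24 arrays. Their part in the Cacna1s values was not tested.

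Scn2b was lower again at P10 12 h. Naive signals of 2210, 1210 and 1810 stood beside HI signals of 1390, 1010 and 1010, with ratios of -0.67, -0.26 and -0.84 (mean -0.59, SE 0.11, limma adjusted p = 0.000646). Replicate 2 was the least affected, and the mean fell below 1.5-fold without replicate 1 (-0.55) or without replicate 3 (-0.47), with the dye effect subtracted (-0.49) and with normexp and loess (-0.48). At 24 h Scn2b was back at 0.07, with ratios on both sides of 0. Cacna2d3 stayed below 0 on all 12 P10 arrays (-0.731 to -0.0924), with means of -0.28, -0.43, -0.51 and -0.48 from 3 to 24 h, all passing the adjusted p but not the fold threshold.

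Higher values were few. At P10 3 h Scn4b had ratios of 0.06, 0.52 and 1.04 (mean 0.54, limma adjusted p = 0.0227), against its -0.75 at P5 12 h, and Cacng3 (0.38) and Cacng5 rose with it by adjusted p. At 6 h Cacna2d1 and Cacna1g, each on a dimmer probe, and Cacna2d2 did so, and at 24 h Cacng4 did (0.43, SE 0.11, limma adjusted p = 0.00429). At P10 the Cacng4 probe reached the signal filter at 12 and 24 h only, so near this limit a higher value may have been favoured. Cacna2d2 read 0.399 higher in Cy5 than in Cy3 on the arrays of naive pools, and its mean of 0.32 at P10 6 h became -0.08 once this was subtracted.

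**Figure D4:**
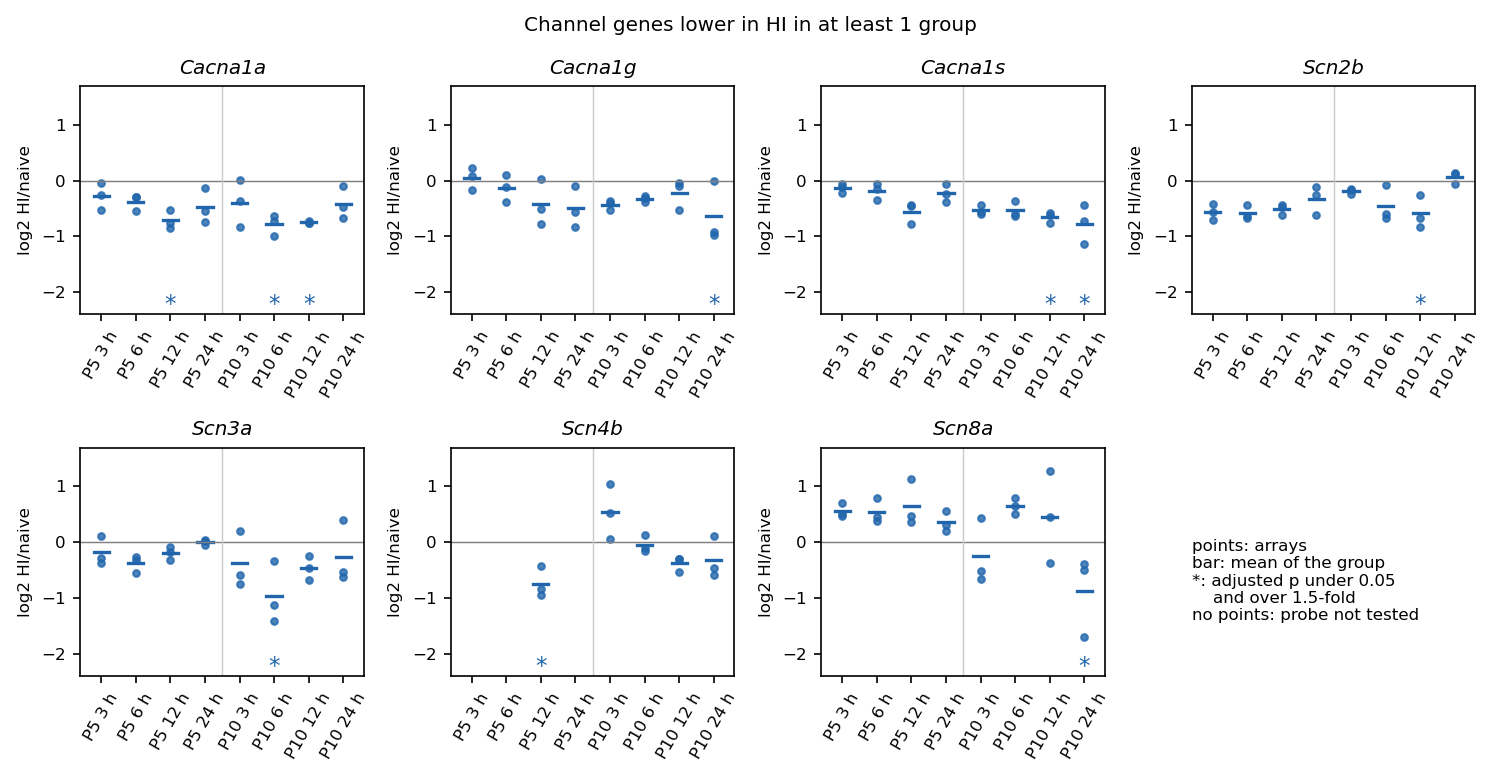
log2 HI over naive on each array (points) and group mean (bars) for the 7 channel genes called lower in at least 1 group, each on the called probe, with P5 left and P10 right of the vertical line. Asterisks mark groups with a limma adjusted p under 0.05 and over 1.5-fold. Without subtraction of the dye effect, Cacna1s lay below 0 on all 24 arrays, and Scn8a above 0 on all 12 P5 arrays.

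For 4 of the 7 genes, the call rested on 1 of 2 probes. Cacna1a was called lower at P10 6 h (-0.73, -0.99 and -0.64, mean -0.78, limma adjusted p = 0.000223) and at P10 12 h (-0.76, -0.76 and -0.72, mean -0.75, limma adjusted p = 0.000521) on the dimmer probe, while the brighter one averaged 0.07 and -0.07. The dimmer probe read lower than the brighter on all 12 P10 arrays and on all 11 P5 arrays with both. It also read -0.209 in Cy5 over Cy3 on average when naive pools were compared, and after subtraction its 3 called means became -0.50, -0.57 and -0.54, none past the fold threshold. With normexp and loess the P10 means were -0.38 and -0.39, also inside it.

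Scn3a at P10 6 h had the lowest group mean of all channel gene probes tested. On the brighter probe, naive signals of 1010, 1540 and 1100 stood beside HI signals of 463, 576 and 871, with ratios of -1.13, -1.42 and -0.34 (mean -0.96, SE 0.20, limma adjusted p = 0.000759). Replicates 1 and 2 were lower by far more than replicate 3. The other Scn3a probe averaged 0.03 in these pools and read higher than the first on all 12 P10 arrays, by 0.675 on average (SD 0.333), against 0.12 (SD 0.106) at P5.

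Cacna1g, the T-type pore of thalamic relay neurons, was lower at P10 24 h on its brighter probe. Naive signals of 670, 560 and 402 stood beside HI signals of 355, 284 and 398, with ratios of -0.92, -0.98 and -0.01 (mean -0.64, SE 0.17, limma adjusted p = 0.00524). Replicate 3 showed no difference, and with normexp and loess the mean was -0.44, inside the fold threshold. The dimmer probe averaged 0.09 and read higher than the brighter on all 12 P10 arrays.

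Scn8a, the pore of mature nodes and initial segments, was lower at P10 24 h. Naive signals of 1770, 1170 and 783 stood beside HI signals of 543, 823 and 594, with ratios of -1.71, -0.51 and -0.40 (mean -0.87, SE 0.26, limma adjusted p = 0.0100). Replicate 1 decided the call, as the mean without it was -0.45 (adjusted p 0.243). The probe also read higher in Cy5 than in Cy3 on all 8 arrays of naive pools, by 0.414 to 0.734 (mean 0.557), and its P5 means of 0.56, 0.54, 0.66 and 0.35 became 0.00, -0.02, 0.10 and -0.20 once this was subtracted, while P10 24 h became -1.43. The other Scn8a probe was bright enough in 3 groups only, with means of 0.12 at P5 3 h, 0.01 at P5 12 h and 0.12 at P10 12 h.

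**Figure D5:**
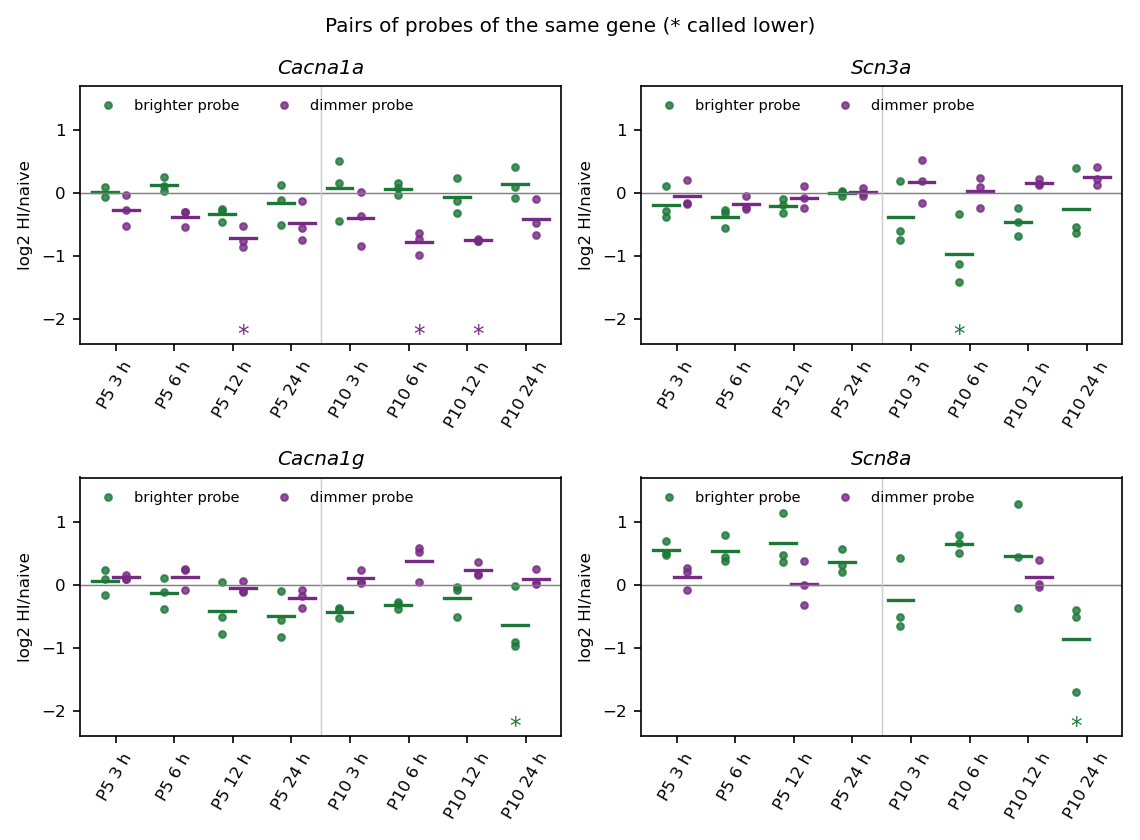
log2 HI over naive on each array (points) and group mean (bars) for both probes of Cacna1a, Scn3a, Cacna1g and Scn8a, the brighter in green and the dimmer in purple. Asterisks mark calls, and groups without points were not tested. At P10 6 h the Scn3a probes averaged -0.96 and 0.03.

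All 3 calls at P10 24 h depended on replicate 1. Without it 0 channel genes were called at that time, with means of -0.58 for Cacna1s (adjusted p 0.000943), -0.50 for Cacna1g (0.0896) and -0.45 for Scn8a (0.243). On this array the neutrophil gene S100a8 had a log2 ratio of 4.52, against 1.395 and 1.774 on the other 2, and whether this bore on the channel genes was not tested.

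The difference between ages was tested directly as the P10 ratio minus the P5 ratio at the same time. With the fold threshold, 0 channel genes differed at 3, 6 and 12 h (background 0.096, 3.27 and 1.26% of all genes higher and 0.0886, 2.46 and 0.497% lower) and 1 differed at 24 h (4.28 and 0.817%). At an unadjusted p under 0.05 and any fold, limma gave 6, 6, 2 and 3 genes higher and 3, 1, 0 and 2 lower at the 4 times, and without the signal filter 2 genes were called at 6 h. The gene at 24 h was Scn8a, at -0.87 in P10 and 0.35 in P5, a difference of -1.22 (SE 0.37, limma adjusted p = 0.0463). A constant dye effect of the probe cancels in this difference, but the call was lost in 5 of the 6 fits that left out 1 array, with a difference of -0.81 (adjusted p 0.278) without P10 24 h replicate 1. It was also lost with slide as a random block (adjusted p 0.0617), without the signal filter (0.0931) and with normexp and loess (-0.96, adjusted p 0.130). By adjusted p alone, 4 more genes differed. Cacng2 at 6 h (0.09 in P10, -0.41 in P5), 1 dimmer probe of Scn2a at 6 h (0.22 and -0.29) and 12 h (0.06 and -0.48) and Cacng4 at 24 h (0.43 and -0.10) were higher in P10, and Cacna1s at 24 h (-0.77 and -0.23) was lower. The Cacng4 probe lay near the signal filter at P10, which may have favoured its higher value there. The Scn2a difference was not shared by its brightest probe, which read -0.44 in P10 and -0.32 in P5 at 6 h, and -0.24 and -0.44 at 12 h (limma adjusted p = 0.641 and 0.492). The background by that count was 6.68% higher at 6 h, 2.5% higher at 12 h, and 7.58% higher and 2.15% lower at 24 h.

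Genes that act with the channels were examined from lists of partners. Of 12 sodium channel partners tested in at least 1 group, 0 were called by limma with the fold threshold in any of the 8 groups, while 8 were higher and 8 lower in at least 1 group at an unadjusted p under 0.05 and any fold. Of 11 calcium channel inhibitors and partners, 4 rose and 1 fell in at least 1 group, against 15.2 and 18.1% of all genes. Gem, a small GTPase that binds the beta subunits and keeps calcium channels from the membrane, was the one that moved most. Its log2 ratios were 3.36, 2.77 and 2.71 at P5 3 h and 2.67, 2.83 and 3.42 at P10 3 h, with means of 2.95 and 2.97 (limma adjusted p = 5.3e-08 and 3.38e-08). At P10 24 h it was still 1.28, with 1.66, 1.19 and 0.99 on the arrays. Rem2, a GTPase of the same family, averaged 0.84 at P5 3 h and 0.98 at P10 3 h. Stac3, an adaptor of the Cacna1s channel in muscle, was lower at P10 3 h (-0.80) and 24 h (-0.96).

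Of 14 genes for calcium stores, pumps and exchangers, 4 rose and 2 fell, all at P10, with Slc8a3 counted in both. At P10, 15% of all genes were higher and 17.7% lower in at least 1 group, so the count lower was near that of all genes. Itpr1, the inositol trisphosphate receptor of the endoplasmic reticulum, had ratios of -1.13, -1.31 and -0.56 at P10 6 h (mean -1.003, limma adjusted p = 6.09e-05). Atp2a2, the pump that refills this store, averaged 0.95 there on a dimmer probe, and the plasma membrane pump Atp2b2 0.79. The exchanger Slc8a3 averaged 0.88 at P10 6 h and -0.65 at P10 24 h, when replicate 1 (-1.48) was far below the others (-0.30 and -0.17).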

How the data were processed

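Agilent 4x44K arrays held labelled RNA of 24 HI pools against 24 naive pools and of 8 naive pools of P2 and P15. The deposited scanner files hold processed intensity values per spot and dye, and log10 ratios of Cy5 over Cy3, which the authors made with Feature Extraction 10.5.1.1 (background subtraction and Lowess dye normalisation). The deposited series table holds log10 ratios of the same arrays and equals the scanner ratios on the HI arrays. The authors' own thresholds, per their methods, were 2-fold in at least 2 of 3 replicates, or 1.5-fold at 0.05 in a Benjamini-Hochberg adjusted test against zero, with signals over 100, and 2-fold at 0.001 for ontogeny. The first of these was not run here.

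Here outlier spots were dropped, spots of a probe averaged (geometric means of signal), and log10 ratios turned into log2. In each group, probes with a mean signal of at least 100 in 1 dye and at least 2 ratios were fitted with limma 3.58.1 in R 4.3.3 (1 coefficient for each of 8 groups over 24 arrays, moderated variance, Benjamini-Hochberg over all probes tested). A gene was called when 1 of its probes passed an adjusted p under 0.05 and 1.5-fold. Ages were compared within this fit. Naive levels were log2 Cy3 signals minus the 75th percentile of each array, fitted over 32 arrays (adjusted p under 0.001 and 2-fold). Groups came from the sample labels. The precision is limited by 3 arrays a group. The code was tested on simulated data. Members, partner lists and marker lists were chosen with earlier results of these data known. Named are all channel genes called after HI or for the age difference, the 5 largest rises and falls among those called from P2 to P15 (only 3 fell, and 1 gene under this rule is not reported here), the main central sodium pores and Cacna1a, and others by count or where they passed the adjusted p, the latter chosen after their values were seen. Alternatives were the brightest probe alone, other filters, normexp with loess or quantile scaling, subtraction of the dye effect seen on naive arrays, slide and replicate blocks, the series table, the methods' test (adjusted and unadjusted), and each array left out. Promoter windows came from RefSeq (GRCm38.p6).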

Additional observations from a re-analysis of the deposited data

Results flagged for a closer look

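The HI effect on Scn8a at 24 h differed between ages, by -1.22 (P10 minus P5, log2) in the limma test of the difference itself, with means of -0.87 at P10 and 0.35 at P5. P10 24 h replicate 1 (-1.71) was far below the other P10 arrays (-0.51 and -0.40), and without it the difference was -0.81. With all arrays the adjusted p was 0.0463. The call was kept in 1 of the 6 fits that left out 1 array and lost with slide as a random block (0.0617), so the difference did not hold up.

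In the naive pools, 78 sets of 4 values were screened for a pool far from the other 3, and 3 stood out, where chance picks about 1 in 20. The gap to the nearest pool, as a share of the whole range, was 0.926 for the lowest P2 pool of Cacna1g, 0.909 for the highest P15 pool of Cacna2d2 and 0.865 for the lowest P2 pool of Cacna1i. None of these 3 genes was called between P2 and P15.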

How the results depend on the processing

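With 3 arrays a group, small changes may pass or miss the threshold by chance, and each age lies on its own slides. None of the called values named for a channel gene changed its sign under the alternatives run. Of the channel gene means named but not called, subtraction of the dye effect turned Scn8a at P5 3, 6 and 24 h (to -0.00145, -0.018 and -0.204) and at P10 12 h (to -0.109), and Cacna2d2 at P10 6 h (to -0.0809). It also turned the dimmer Scn3a probe at P10 6 h (to -0.0505) and Cacng4 at P5 24 h (to 0.0125). The counts of called channel genes at P5 6, 12 and 24 h and at P10 3, 6, 12 and 24 h (main values 0, 2, 0 and 0, 2, 3, 3) moved as follows. The brightest probe alone gave 1 at P5 12 h and 1 at P10 6 h. No signal filter gave 5 at P5 12 h and 6 at P10 24 h, and, for P10 minus P5, 2 at 6 h and 0 at 24 h. The filter on probes well above background gave 1 at P5 6 h and 1 at P10 3 h. With the dye effect subtracted there was 1 at P5 12 h, 1 at P10 3 h, 1 at P10 6 h and 0 at P10 12 h. Normexp with loess gave 2 at P5 6 h, 0 at P5 12 h, 1 at P10 6 h, 0 at P10 12 h and 1 at P10 24 h, and 0 for the age difference at 24 h. The methods' test against zero gave 0 at P10 24 h unadjusted, and after Benjamini-Hochberg 0 at P5 12 h and at P10 6, 12 and 24 h, with 0 of the 13 genes lower at P5 12 h by adjusted p alone. As the adjusted form calls almost nothing with 3 arrays a group, its counts of 0 decide nothing. The series table moved no count.

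Leaving out 1 array at a time gave 0 to 1 genes at P5 3 h, 0 to 1 at P5 6 h, 2 to 3 at P5 12 h, 0 to 2 at P5 24 h, 0 to 3 at P10 3 h, 2 to 4 at P10 6 h, 2 to 5 at P10 12 h and 0 to 5 at P10 24 h. The age difference gave 0 to 2 genes at 6 h and 0 to 2 at 24 h, and the count lower at P5 12 h by adjusted p ran from 7 to 9. Slide as a random block (correlation 0.234) left the group counts and gave 0 for the age difference at 24 h (Scn8a adjusted p 0.0617). Within an age the same replicate number is also the same slide. Deviations of same-age arrays had a median r of 0.329 with the same number and of -0.134 with different numbers, but as the former ran from -0.546 to 0.575 the numbers were not taken as pairs. With the replicate block the counts were 2 at P5 12 h and 2, 3 and 3 at P10 6, 12 and 24 h, so the pairing moved none.

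Of naive changes, the P2 to P5 count (3) became 5 without the filter, 6 with probes well above background, 5 with both dyes and 1 with normexp and quantile scaling, and the P10 to P15 count (13) became 8 with normexp and quantile scaling and 8 with slide as a random block (correlation 0.763). The P2 to P15 count of 11 stayed between 8 and 14 under all alternatives run, the 14 coming from the slide block and from P2 and P15 alone. Chosen after seeing the data, leaving out the P5 slide of replicate 3 gave 1 gene at P5 6 h, 1 at P5 24 h, 8 lower at P5 12 h by adjusted p, 1 for the age difference at 6 h and 7 from P2 to P5. In all cases the cause was not tested.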
